A study of Homo sapiens with 24 samples.

Results

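The prostate lineage transcription factors described here are 7 genes, FOXA1, HOXB13, GATA2, GRHL2, SPDEF, EHF and CREB3L4, followed across 8 groups of cultured prostate cancer cells. Members were taken by gene symbol from the array platform's annotation, which lists 1 probe for each of them. All 7 probes were detected above background on all 24 arrays, so no member was lost to the filter on dim probes, and the 7 stand among 13789 genes tested. The study compared loss of EZH2 with inhibition of its enzyme activity. EZH2 carries the methyltransferase activity of the Polycomb complex PRC2, which modifies histone H3 and is best known as a repressor of transcription.

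The cells were C4-2B, a castration-resistant line derived from LNCaP, and LNCaP itself, an androgen-driven line from a lymph node metastasis. In each line, cells transfected with siEZH2, an siRNA against the coding sequence of EZH2, were set against cells transfected with siControl. In each line, cells given EPZ6438 (tazemetostat, an inhibitor of EZH2's methyltransferase activity) at 1 µM were set against cells given the solvent DMSO. All treatments lasted 3 days in RPMI with serum, and every group had 3 arrays. The siRNA and inhibitor groups have separate controls. Both lines are single established cancer lines, 1 siRNA is named, and these arrays measure transcripts, not the EZH2 protein or its histone mark. The labels number the replicates without saying that they came from separate cultures, so p-values measure the spread between arrays, which may be technical.

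Some of these factors act together on enhancers that define a luminal prostate cell. FOXA1 is a forkhead pioneer factor that opens enhancer chromatin, HOXB13 is a homeobox factor of the prostate lineage, and GATA2 is a zinc finger factor that binds many of the same hormone-driven enhancers. GRHL2, a grainyhead-family factor, maintains junction genes of epithelia, and EHF is an ETS factor restricted to epithelia. SPDEF is an ETS factor of secretory epithelia, and CREB3L4 is a bZIP factor held in the endoplasmic reticulum membrane, rich in prostate and tied to the secretory pathway.

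Upstream windows, the 250 bases before an annotated start in RefSeq (GRCh38.p14), were matched for 5 of the 7 genes and differed widely in CpG content. SPDEF (chromosome 6, 34537802 to 34556329) had 6 CpG dinucleotides in its window, EHF (chromosome 11, 34621093 to 34663288) had 4 in its first listed window, and CREB3L4 (chromosome 1, 153967487 to 153974359) had 7. GATA2 (chromosome 3, 128479422 to 128493201) had 24 in its first window and FOXA1 (chromosome 14, 37589552 to 37595249) had 26, against a median of 11 over 35116 windows of this length. The EHF and CREB3L4 windows lie inside the gene spans given, before an annotated start within the gene. Those of SPDEF and FOXA1 and the first of GATA2 lie directly upstream of the span. The CpG counts therefore compare unlike kinds of start. No window is shown for HOXB13 and GRHL2. The windows of the 3 members that decreased most in siEZH2 LNCaP cells, and the CpG-rich window of GATA2, the member that was not called there, are printed to show this contrast, with each CpG in capitals and all reading 5′ to 3′ on the gene's strand.
SPDEF (chr6:34556330-34556579, minus strand): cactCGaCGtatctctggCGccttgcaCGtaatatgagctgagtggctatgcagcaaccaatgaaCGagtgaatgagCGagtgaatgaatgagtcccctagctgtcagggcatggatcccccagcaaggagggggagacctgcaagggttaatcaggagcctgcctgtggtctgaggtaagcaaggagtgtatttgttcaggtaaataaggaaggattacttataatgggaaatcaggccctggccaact
EHF (chr11:34624007-34624256, plus strand): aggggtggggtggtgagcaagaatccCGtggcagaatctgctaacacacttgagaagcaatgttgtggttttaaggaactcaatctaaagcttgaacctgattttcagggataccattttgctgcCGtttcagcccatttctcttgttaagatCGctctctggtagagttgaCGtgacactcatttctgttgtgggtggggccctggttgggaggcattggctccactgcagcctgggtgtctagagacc
CREB3L4 (chr1:153968000-153968249, plus strand): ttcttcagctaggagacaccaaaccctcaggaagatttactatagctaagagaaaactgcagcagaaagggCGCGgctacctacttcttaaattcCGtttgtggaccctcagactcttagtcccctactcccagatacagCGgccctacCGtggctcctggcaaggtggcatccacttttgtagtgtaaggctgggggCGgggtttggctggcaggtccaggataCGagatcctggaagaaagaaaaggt
GATA2 (chr3:128493202-128493451, minus strand): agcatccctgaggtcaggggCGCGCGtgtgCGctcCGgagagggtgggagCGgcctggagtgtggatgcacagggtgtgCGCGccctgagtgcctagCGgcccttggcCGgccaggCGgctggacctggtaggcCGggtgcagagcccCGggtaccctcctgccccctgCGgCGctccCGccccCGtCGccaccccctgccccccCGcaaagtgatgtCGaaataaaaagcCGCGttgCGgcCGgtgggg
FOXA1, which did fall in siEZH2 LNCaP cells, also has a CpG-rich window, so the split in CpG content does not follow the calls in every member. The windows were searched on both strands for a forkhead motif (GTAAANA), which 9.58% of all windows hold, and for an ETS core (GGAAG), which 65.1% hold and which can overlap other motifs. SPDEF had 1 match to each, CREB3L4 had 2 matches to the ETS core, and the printed EHF and GATA2 windows had no match to either. The printed EHF window had 1 match to a CRE motif (TGACGT), held by 7.1% of windows. A match is a description of letters, not a binding site.

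Of 47311 probes, an array had 19304 to 21653 above background (40.8% to 45.8%), and arrays correlated at 0.9879 to 0.9966 with the others of their group. The EZH2 transcript was 1.02 ± 0.16 lower on the log2 scale in siEZH2 than in siControl C4-2B cells (adjusted p = 7.16e-05) and 0.87 ± 0.16 lower in LNCaP cells (adjusted p = 0.000174), with no overlap of arrays in either line. On markers, 8 of 8 luminal genes with a probe were detected on every array, but some markers of other cell types were detected too. Of 4 basal markers KRT5 and KRT14 were detected on 0 arrays and KRT15 on 1, while SERPINB5 was detected on 11 of 12 C4-2B and 12 of 12 LNCaP arrays. Of 4 neuroendocrine markers CHGB and SYP were detected on 0 arrays, CHGA on 4 C4-2B and 1 LNCaP arrays, and INSM1 on 9 C4-2B and 6 LNCaP arrays. Of 6 mesenchymal markers VIM was detected on every array, COL1A1 on 10 C4-2B and 11 LNCaP arrays, FN1 on 6 and 11, COL1A2 on 3 and 1, DCN on 1 and 2, and ZEB1 on 0. Of 4 blood markers CD68 was detected on every array, CD3E and HBB on 1 C4-2B array each, and PTPRC on 0. The summed luminal marker level moved with the siRNA groups in LNCaP, at 12.45 to 12.48 on the log2 scale in siEZH2 arrays and 13.37 to 13.51 in siControl arrays. In C4-2B it was 10.51 to 10.87 in siEZH2 arrays and 10.77 to 10.96 in siControl arrays. With EPZ6438 it was 13.28 to 13.32 against 12.32 to 12.43 with DMSO in C4-2B, and 13.37 to 13.80 against 13.05 to 13.16 in LNCaP. The summed mesenchymal level was 9.65 to 9.74 in siEZH2 and 9.18 to 9.37 in siControl C4-2B arrays. In LNCaP it was 8.05 to 8.16 in siEZH2 and 7.67 to 7.83 in siControl arrays. With EPZ6438 the mesenchymal sum was 9.42 to 9.63 in C4-2B, against 9.24 to 9.4 with DMSO. In LNCaP it was 8.72 to 8.93 with EPZ6438, against 8.36 to 8.46 with DMSO. Sums of intensity follow their brightest genes, so this one reflects mainly VIM and does not show that the class moved. VIM averaged 8.45 over all arrays, against 4.35 to 4.95 for FN1, COL1A1, COL1A2 and DCN. The luminal sum likewise weighs TMPRSS2 (11.04) and SLC45A3 (10.34) most. The part of these markers in the members' values was not tested, and with bulk RNA fewer cells of a type and less RNA per cell cannot be told apart. The 1 basal marker that passed the filter, SERPINB5, was 7.38 to 7.54 in siEZH2 and 6.55 to 6.62 in siControl LNCaP arrays. In C4-2B it was 5.92 to 6.07 in siEZH2 and 4.94 to 5.38 in siControl arrays. With EPZ6438 it was 5.81 to 5.93 in C4-2B, against 4.47 to 5.21 with DMSO. In LNCaP it was 6.84 to 7.39 with EPZ6438, against 6.58 to 6.65 with DMSO.

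**Figure D1:**
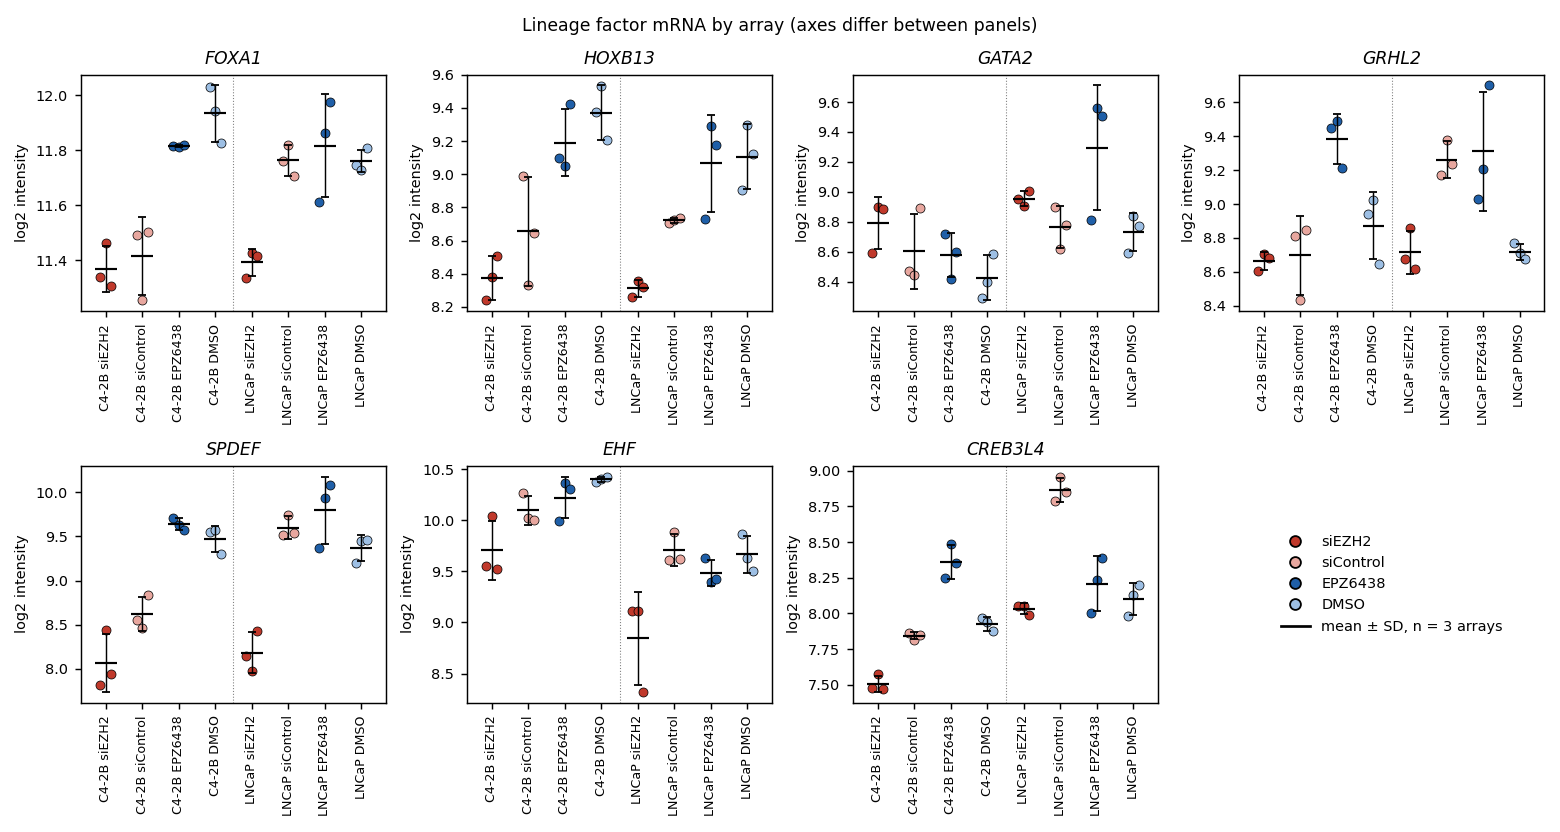
Normalised log2 intensity of the 7 factors (1 panel each, axes differ) on every array, with the 4 C4-2B groups on the left and the 4 LNCaP groups on the right of each panel. Points are arrays, and horizontal and vertical lines are the mean and SD of 3 arrays. SPDEF lies between 7.82 and 8.44 on siEZH2 arrays of both lines and at or above 8.47 on all others, and EHF is at or above 9.99 on the C4-2B arrays not given siEZH2.

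With EZH2 silenced, 6 of the factors were lower in LNCaP cells and 2, SPDEF and CREB3L4, in C4-2B cells. With EPZ6438 none was called lower, and GRHL2 was higher in both lines. In siEZH2 LNCaP cells, 6 of 7 members were lower and 0 higher at an adjusted p under 0.05, where 12.5% of all genes were called lower and 26.7% were called in either direction. The members' median log2 difference was -0.55, beside 0.022 over all genes. In siEZH2 C4-2B cells, 2 of 7 were lower and 0 higher, where 8.53% of genes were called lower, 10.1% higher and 18.7% in either direction, and the members' median was -0.28 beside 0.025. In EPZ6438 LNCaP cells, 2 of 7 were higher, where 4% of genes were called higher, 2.68% lower and 6.68% in either direction, with a median of 0.10 beside 0.009. In EPZ6438 C4-2B cells, 2 of 7 were higher, where 8.14% of genes were called higher, 7.04% lower and 15.2% in either direction, with a median of 0.15 beside 0.004. The scaling of the arrays bears on these counts: with arrays centred on their medians in place of quantile normalisation, 1 member (SPDEF) was called in siEZH2 LNCaP cells and 0 in the other treatment comparisons, while the all-gene median itself moved to 0.184 and 0.21 in siEZH2 LNCaP and C4-2B cells. Under that scaling the siEZH2 LNCaP differences were -0.13 for FOXA1, -0.10 for HOXB13, -0.23 for GRHL2, -0.56 for EHF and -0.53 for CREB3L4, none called. That centring takes in all 47311 probes, of which 40.8% to 45.8% were detected on an array. With centring on probes detected on all arrays, SPDEF (-1.43), EHF (-0.86), CREB3L4 (-0.84), GRHL2 (-0.54) and FOXA1 (-0.43) stayed called in siEZH2 LNCaP cells. HOXB13 (-0.41, adjusted p = 0.0742) was lost, as was GATA2 with EPZ6438 in LNCaP (0.55, adjusted p = 0.0645). The other treatment calls stood.

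**Figure D2:**
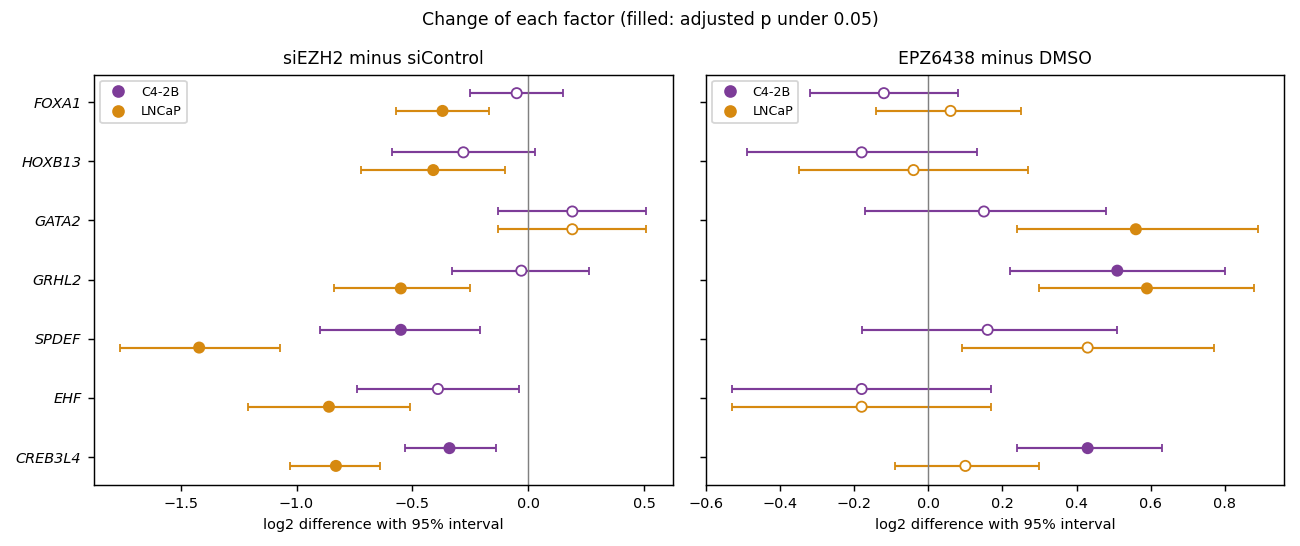
Log2 difference of each factor with its 95% confidence interval, siEZH2 minus siControl on the left and EPZ6438 minus DMSO on the right, in C4-2B (purple) and LNCaP (orange). Filled circles passed an adjusted p of 0.05 in the limma fit. On the left 6 LNCaP and 2 C4-2B circles are filled and all lie below 0, and on the right the 4 filled circles lie above 0.

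SPDEF, the ETS factor of secretory epithelium, had the largest decrease of the members. In LNCaP cells it measured 8.15, 7.98 and 8.43 on siEZH2 arrays, against 9.52, 9.74 and 9.54 on siControl arrays (log2 intensity). All 3 siEZH2 arrays were lower than every siControl array by more than 1 unit, and SPDEF fell by 1.42 ± 0.17 (SE, n = 3 arrays per group, limma with Benjamini-Hochberg adjustment, adjusted p = 5.38e-07), to 0.375 of the siControl level. Only 0.4% of genes had a lower log2 difference in this comparison. In C4-2B cells it measured 7.82, 8.44 and 7.95 on siEZH2 arrays, against 8.56, 8.47 and 8.84 on siControl arrays. The groups did not overlap, although the second siEZH2 array lay close to the lowest control, and SPDEF fell by 0.55 ± 0.17 (adjusted p = 0.0207). This C4-2B call was lost without siControl replicate 3 (adjusted p = 0.101), siEZH2 replicate 1 (0.112) or siEZH2 replicate 3 (0.092). With arrays centred on their medians the difference was -0.23 (adjusted p = 0.642), and with centring on probes detected on all arrays -0.58 (adjusted p = 0.0245). With EPZ6438, LNCaP arrays measured 9.36, 9.94 and 10.09, against 9.19, 9.44 and 9.46 with DMSO. The first EPZ6438 array lay within the DMSO range and the other two above it, and the difference of 0.43 ± 0.17 did not pass (adjusted p = 0.124). Without that array it was 0.65 and passed (adjusted p = 0.0102). In C4-2B the difference with EPZ6438 was 0.16 (95% interval -0.18 to 0.51).

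CREB3L4, the bZIP factor of the endoplasmic reticulum membrane, was lower with siEZH2 in both lines and higher with EPZ6438 in C4-2B. In LNCaP cells it measured 8.05, 8.05 and 7.99 on siEZH2 arrays, against 8.79, 8.96 and 8.85 on siControl arrays. These groups were far apart, and CREB3L4 fell by 0.83 ± 0.10 (adjusted p = 3.72e-07). In C4-2B cells it measured 7.48, 7.57 and 7.47 on siEZH2 arrays, against 7.86, 7.82 and 7.85 on siControl arrays. Each group was tight and they did not overlap, with a decrease of 0.34 ± 0.10 (adjusted p = 0.0149) that was lost without siEZH2 replicate 3 (adjusted p = 0.0584). With arrays centred on their medians this C4-2B difference was 0.00 (adjusted p = 0.995). With centring on probes detected on all arrays it was -0.34 and called (adjusted p = 0.0218), so the call depends on which scaling is used. EPZ6438 C4-2B arrays measured 8.25, 8.48 and 8.35, against 7.97, 7.94 and 7.88 on DMSO arrays. Here too the groups were apart, with EPZ6438 higher by 0.43 ± 0.10 (adjusted p = 0.00228). In LNCaP the difference with EPZ6438 was 0.10 (95% interval -0.09 to 0.30) and the arrays overlapped. The siControl LNCaP arrays held the highest CREB3L4 values of the series, above the DMSO arrays of the same line, which measured 7.98, 8.13 and 8.20.

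EHF, the epithelial ETS factor, was called in 1 treatment comparison. In LNCaP cells it measured 9.11, 9.11 and 8.32 on siEZH2 arrays, against 9.61, 9.89 and 9.62 on siControl arrays. The siEZH2 array of replicate 3 was the lowest of the series by a wide margin, the groups did not overlap, and EHF fell by 0.86 ± 0.17 (adjusted p = 0.000437). In C4-2B cells it measured 9.55, 10.04 and 9.53 on siEZH2 arrays, against 10.26, 10.02 and 10.00 on siControl arrays. The second siEZH2 array lay within the control range, and the difference of -0.39 (95% interval -0.74 to -0.04) did not pass (adjusted p = 0.116). Without that array the difference was -0.56 and passed (adjusted p = 0.0342). With EPZ6438 the difference from DMSO was -0.18 in each line, with intervals from -0.53 to 0.17.

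GRHL2 (chromosome 8, 101492439 to 101681200), which maintains epithelial junction genes, moved in opposite directions under the 2 kinds of treatment in LNCaP cells. It measured 8.67, 8.86 and 8.62 on siEZH2 arrays, against 9.17, 9.38 and 9.24 on siControl arrays. The groups did not overlap, and GRHL2 fell by 0.55 ± 0.14 (adjusted p = 0.00529). EPZ6438 LNCaP arrays measured 9.03, 9.20 and 9.70, against 8.77, 8.71 and 8.68 on DMSO arrays. The 3 EPZ6438 arrays lay above all DMSO arrays but were spread widely, with GRHL2 higher by 0.59 ± 0.14 (adjusted p = 0.0127). That call was lost without DMSO replicate 3 (adjusted p = 0.0582) or EPZ6438 replicate 3 (0.40 higher, adjusted p = 0.125). EPZ6438 C4-2B arrays measured 9.45, 9.49 and 9.21, against 8.94, 9.03 and 8.65 on DMSO arrays. The groups did not overlap, with GRHL2 higher by 0.51 ± 0.14 (adjusted p = 0.0145), a call lost without DMSO replicate 3 (adjusted p = 0.089), EPZ6438 replicate 1 (0.0559) or EPZ6438 replicate 2 (0.0663). Under siEZH2 in C4-2B its difference was -0.03 (95% interval -0.33 to 0.26). The siControl LNCaP level lay above the DMSO LNCaP level, and siEZH2 LNCaP arrays overlapped with those DMSO arrays.

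FOXA1, the pioneer factor, changed least among the members called in LNCaP. It measured 11.34, 11.43 and 11.41 on siEZH2 LNCaP arrays, against 11.76, 11.82 and 11.71 on siControl arrays. The groups did not overlap, and FOXA1 fell by 0.37 ± 0.10 (adjusted p = 0.00519), to 0.773 of the siControl level. In C4-2B the siEZH2 arrays ranged from 11.30 to 11.46 and the siControl arrays from 11.25 to 11.50, and the difference was -0.05 (95% interval -0.25 to 0.15). With EPZ6438 the differences were -0.12 in C4-2B (95% interval -0.32 to 0.08) and 0.06 in LNCaP (95% interval -0.14 to 0.25), neither called. In C4-2B the EPZ6438 arrays, at 11.82, 11.81 and 11.82, nevertheless lay just below the DMSO arrays, at 12.03, 11.94 and 11.83.

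HOXB13, the prostate homeobox factor (chromosome 17, 48724763 to 48728750), measured 8.26, 8.36 and 8.32 on siEZH2 LNCaP arrays, against 8.71, 8.72 and 8.74 on siControl arrays. The 2 groups were narrow and did not overlap, with a decrease of 0.41 ± 0.15 (adjusted p = 0.0468). The call stood at the threshold and was lost when any 1 of the 6 arrays was left out (adjusted p = 0.0716 to 0.125). Its SE draws on the spread of all 8 groups. The SD was 0.05 in siEZH2 and 0.02 in siControl LNCaP arrays, but 0.33 in siControl C4-2B arrays. Over 17 settings of the limma fit the adjusted p ran from 0.00242 to 0.87. In C4-2B the siEZH2 arrays ranged from 8.24 to 8.51 and the siControl arrays from 8.33 to 8.99, and the difference of -0.28 (95% interval -0.59 to 0.03) was not called. EPZ6438 gave differences of -0.18 in C4-2B (95% interval -0.49 to 0.13) and -0.04 in LNCaP (95% interval -0.35 to 0.27).

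GATA2, the zinc finger factor, was the 1 member not called with siEZH2 in LNCaP cells. It measured 8.95, 8.90 and 9.01 on siEZH2 arrays, against 8.90, 8.62 and 8.78 on siControl arrays. The siEZH2 arrays lay just above the controls, the closest pair being equal to 2 decimals, and the difference of 0.19 (95% interval -0.13 to 0.51) was not called. In C4-2B the difference was also 0.19, with the same interval to 2 decimals and overlapping arrays. EPZ6438 LNCaP arrays measured 8.81, 9.56 and 9.51, against 8.59, 8.84 and 8.77 on DMSO arrays. EPZ6438 replicates 2 and 3 were above all DMSO arrays and replicate 1 was inside their range, with GATA2 higher by 0.56 ± 0.16 (adjusted p = 0.0312). The call was lost without DMSO replicate 1 (0.133) or 3 (0.0798) or EPZ6438 replicate 2 (0.145) or 3 (0.189), each value an adjusted p. In C4-2B the difference with EPZ6438 was 0.15 (95% interval -0.17 to 0.48).

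Array by array, non-overlap was common in this series and is read against all genes. All 7 members had siEZH2 and siControl arrays that did not overlap in LNCaP, which held for 46.4% of all genes. In C4-2B this was so for SPDEF and CREB3L4, where 32.6% of genes did not overlap. With EPZ6438 it was so for GRHL2 alone in LNCaP, where 21.8% of genes did not overlap, and for 5 members in C4-2B (FOXA1, GRHL2, SPDEF, EHF and CREB3L4), where 28.9% did not.

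**Figure D3:**
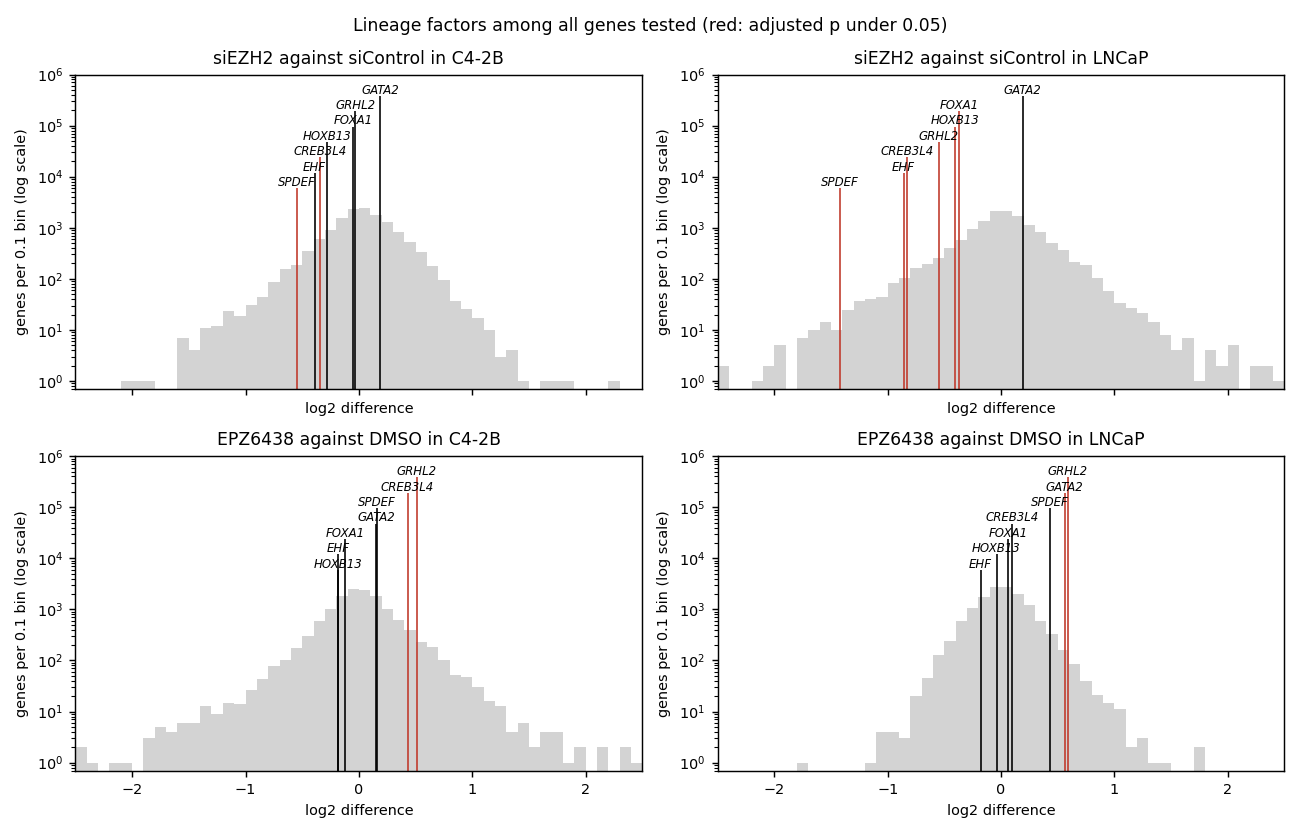
Number of genes per 0.1 bin of log2 difference (grey, log axis, range shown -2.5 to 2.5) for the 4 treatment comparisons, with a line at each factor's value, red where its adjusted p was under 0.05 and black otherwise. Line heights only separate the names. Under siEZH2 in LNCaP, SPDEF lies at -1.42 in the left tail, while under EPZ6438 the red lines lie between 0.43 and 0.59.

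The difference between silencing and inhibiting EZH2 was tested directly within each line. In LNCaP, 4 of 7 members had a lower siEZH2 effect than EPZ6438 effect, where 9.7% of genes were called lower, 8.8% higher and 18.5% in either direction. SPDEF differed by -1.85 ± 0.23 (adjusted p = 4.54e-06), GRHL2 by -1.14 ± 0.20 (adjusted p = 0.000231) and CREB3L4 by -0.94 ± 0.14 (adjusted p = 2.23e-05). FOXA1 differed by -0.43 ± 0.14 (adjusted p = 0.0293), a call lost on leaving out any of 7 of the 12 arrays, with adjusted p between 0.00488 and 0.0843 over all 12. EHF, at -0.68 ± 0.24, fell just short (adjusted p = 0.051). HOXB13 and GATA2 each differed by -0.37 and were not called. In C4-2B, 2 of 7 had a lower siEZH2 effect, where 7.26% of genes were called lower, 6.61% higher and 13.9% in either direction. CREB3L4 differed by -0.77 ± 0.14 (adjusted p = 0.000298), and SPDEF by -0.72 ± 0.23 (adjusted p = 0.0426), lost without any of 10 of the 12 arrays (adjusted p up to 0.118). GRHL2 differed by -0.54 (95% interval -0.96 to -0.13, adjusted p = 0.0727). The siRNA and inhibitor groups have their own controls, so the kind of treatment and the way the cells were handled cannot be told apart.

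The siEZH2 effect was smaller in C4-2B than in LNCaP for 2 of 7 members, where 3.15% of genes were called higher, 2.63% lower and 5.78% in either direction. The effect on SPDEF differed by 0.86 ± 0.23 (adjusted p = 0.0312) and that on CREB3L4 by 0.50 ± 0.14 (adjusted p = 0.0301). Each of these calls was lost on leaving out any of 7 of the 12 arrays, with adjusted p up to 0.103 for SPDEF and 0.0883 for CREB3L4. Centring on probes detected on all arrays also lost both (adjusted p = 0.0549 and 0.0533). In C4-2B and LNCaP, mean SPDEF was 8.07 and 8.18 on siEZH2 arrays, which overlapped, and 8.62 and 9.6 on siControl arrays. For CREB3L4 the means were 7.51 and 8.03 on siEZH2 arrays, and 7.84 and 8.87 on siControl arrays. The part of the siControl levels in these differences was not tested. The values for GRHL2 (0.51, adjusted p = 0.14), EHF (0.47, 0.288) and FOXA1 (0.32, 0.176) did not pass, so the calls on these genes in LNCaP and not in C4-2B do not show a difference between the lines. The EZH2 transcript's own decrease differed by -0.14 ± 0.22 (adjusted p = 0.797). For the EPZ6438 effect 0 of 7 members differed between lines in the limma fit, where 6.67% of genes did (3.24% higher and 3.43% lower), and 1 (CREB3L4) had an unadjusted p under 0.05.

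In control cells, the lines themselves differed in 3 of the factors. Over DMSO and siControl arrays together, EHF was higher in C4-2B than in LNCaP by 0.56 ± 0.12 (adjusted p = 0.000354), while CREB3L4 was lower by 0.60 ± 0.07 (adjusted p = 5.97e-08) and SPDEF by 0.43 ± 0.12 (adjusted p = 0.00333). Here 24.6% of genes were called higher, 24.9% lower and 49.5% in all, so 3 of 7 is close to the background. These values depended on which control was used, an alternative chosen after seeing the data. With siControl arrays alone, 4 of 7 members were lower in C4-2B, where 24.3% of genes were lower, 22.6% higher and 46.9% called in all: CREB3L4 by 1.02 ± 0.10, SPDEF by 0.98 ± 0.17, GRHL2 by 0.56 ± 0.14 and FOXA1 by 0.35 ± 0.10 (adjusted p from 3.02e-09 to 0.00415). With DMSO arrays alone, EHF was the 1 member called, higher by 0.74 ± 0.17 (adjusted p = 0.00112), where 19.9% of genes were called higher and 39.8% in all. On DMSO arrays SPDEF measured 9.55, 9.57 and 9.30 in C4-2B cells, against 9.19, 9.44 and 9.46 in LNCaP cells, and the groups overlapped.

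The change in the line difference between controls was itself tested. It was called for SPDEF at -1.09 ± 0.23 (adjusted p = 0.000788), CREB3L4 at -0.85 ± 0.14 (adjusted p = 2.7e-05), GRHL2 at -0.72 ± 0.20 (adjusted p = 0.00686) and FOXA1 at -0.52 ± 0.14 (adjusted p = 0.00405), so that 4 of 7 were lower, where 18.3% of genes were called lower and 34.1% in all. These are differences between lines on siControl arrays minus those on DMSO arrays. Set against DMSO cells of the same line, siControl LNCaP cells were higher in CREB3L4 by 0.76 ± 0.10 (adjusted p = 2.4e-06) and GRHL2 by 0.54 ± 0.14 (adjusted p = 0.00576), where 12.7% of genes were called higher and 26.5% in all. In C4-2B, siControl cells were lower than DMSO cells in SPDEF by 0.85 ± 0.17 (adjusted p = 0.000198), HOXB13 by 0.72 ± 0.15 (adjusted p = 0.000471) and FOXA1 by 0.52 ± 0.10 (adjusted p = 0.000112), where 21.1% of genes were called lower, 19% higher and 40.2% in all. Transfection, experiment and array handling cannot be told apart here.

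**Figure D4:**
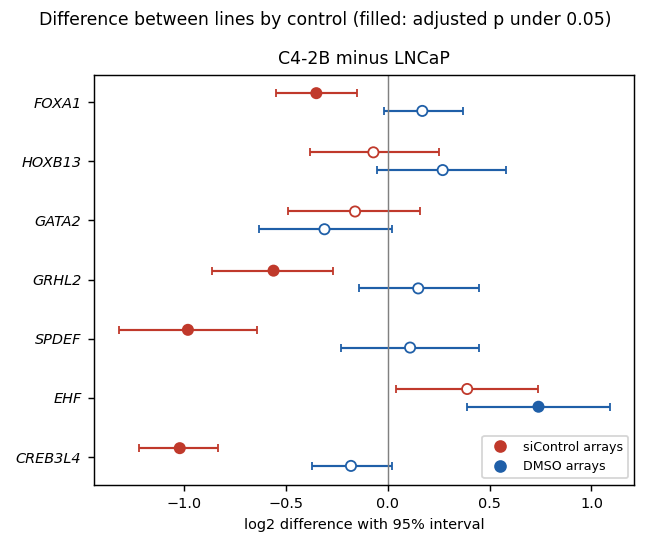
Log2 difference of each factor, C4-2B minus LNCaP, with its 95% confidence interval, from siControl arrays (red) and DMSO arrays (blue), 3 arrays per group. Filled circles passed an adjusted p of 0.05. SPDEF lies at -0.98 on siControl arrays and 0.11 on DMSO arrays, and EHF lies above 0 on both.

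From highest to lowest group mean, the order of the 8 groups differed between members. SPDEF was highest with EPZ6438 in LNCaP, and the 5 highest groups overlapped with their neighbours in this order, ending with DMSO LNCaP. Its next groups, siControl C4-2B, siEZH2 LNCaP and siEZH2 C4-2B, were lower, and the last 2 of these overlapped. CREB3L4 was highest in siControl LNCaP, clear of the next group by 0.51, and lowest in siEZH2 C4-2B, clear of siControl C4-2B by 0.34. EHF was highest in the DMSO C4-2B group and lowest in siEZH2 LNCaP, which lay 0.64 below its neighbour without overlap. FOXA1 had its highest mean in DMSO C4-2B, and its 3 lowest groups, siControl C4-2B, siEZH2 LNCaP and siEZH2 C4-2B, overlapped with each other. HOXB13 overlapped at every step of its order, with the 4 inhibitor and DMSO groups above the 4 siRNA groups. GATA2 was highest in EPZ6438 LNCaP and lowest in DMSO C4-2B, with 1 step between neighbours free of overlap. GRHL2 was highest with EPZ6438 in C4-2B and then in LNCaP, and its only step free of overlap was that of 0.39 from siControl LNCaP down to DMSO C4-2B.

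Relatives of the members in the same factor families were called at about the rate of all genes in siEZH2 LNCaP cells. Of 18 measured paralogues, 2 were higher and 3 lower there, where 14.2% of all genes were called higher and 12.5% lower. In siEZH2 C4-2B 2 were higher and 1 lower, where 10.1% of all genes were called higher and 8.53% lower. With EPZ6438 3 were higher in each line, where 4% of all genes in LNCaP and 8.14% in C4-2B were called higher. CREB3L2, the relative of CREB3L4, fell by 0.99 ± 0.17 in siEZH2 LNCaP cells (adjusted p = 0.000116), but by median centring the difference was -0.70 (adjusted p = 0.188). ELF3, an epithelial ETS factor related to EHF, was higher by 0.72 ± 0.20 in those cells (adjusted p = 0.00943), opposite in sign to EHF. ELF5, another epithelial ETS factor, was higher with EPZ6438 in C4-2B by 0.82 ± 0.13 (adjusted p = 5.93e-05), a call lost by median centring (0.84, adjusted p = 0.182). Of 18 partner and other epithelial factors, 6 were higher and 0 lower in siEZH2 LNCaP, beside 14.2% of all genes called higher there. The factors KLF4 (1.22 ± 0.17, adjusted p = 5.59e-06) and SOX9 (1.04 ± 0.14, adjusted p = 2.94e-06) had the largest differences. SOX9, a factor of progenitor epithelium, was higher in all 4 treatment comparisons, by 0.58 to 1.28, but with centring on detected probes the siEZH2 C4-2B difference was 0.44 and not called (adjusted p = 0.11), and its probe was detected on 2 of 3 siControl arrays and 1 of 3 DMSO arrays of C4-2B. Of the same 18, 2 were higher and 1 lower in siEZH2 C4-2B, 2 higher and 0 lower with EPZ6438 in LNCaP, and 3 higher and 1 lower with EPZ6438 in C4-2B. The shares of all genes called higher there were 10.1%, 4% and 8.14%, and those called lower 8.53%, 2.68% and 7.04%.

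Genes that mark luminal prostate cells were mostly lower among those called with siEZH2 and mostly higher among those called with EPZ6438. Of 20 measured, 14 were lower and 1 higher in siEZH2 LNCaP cells (median -0.57 beside 0.022 over all genes). There 12.5% of all genes were called lower and 14.2% higher. In siEZH2 C4-2B cells 7 were lower and 2 higher (median -0.23 beside 0.025), where 8.53% of genes were called lower and 10.1% higher. With EPZ6438 in LNCaP, 7 were higher and 1 lower (median 0.32 beside 0.009), where 4% of genes were called higher and 2.68% lower. With EPZ6438 in C4-2B, 9 were higher and 1 lower (median 0.37 beside 0.004), where 8.14% of genes were called higher and 7.04% lower. With arrays centred on their medians, the counts were 7 lower and 1 higher in siEZH2 LNCaP, 1 lower and 2 higher in siEZH2 C4-2B, 0 called with EPZ6438 in LNCaP, and 5 higher in C4-2B. Over all genes that scaling called 12.2%, 7.59%, 0.203% and 1.92% in these 4 comparisons, in the same order. Centring on probes detected on all arrays gave 15 lower and 1 higher in siEZH2 LNCaP, and 9 lower and 1 higher in siEZH2 C4-2B. With EPZ6438 it gave 6 higher in LNCaP, and 9 higher and 1 lower in C4-2B. Over all genes it called 22.5%, 15.4%, 2.57% and 9.12%, in the same order. FKBP5, an androgen-induced co-chaperone, fell by 2.07 ± 0.11 in siEZH2 LNCaP (adjusted p = 2.23e-12), and SLC45A3, the prostein gene, fell by 1.56 ± 0.14 (adjusted p = 7.23e-09). KRT19, a simple-epithelial keratin, fell by 1.99 ± 0.14 (adjusted p = 1.61e-10). KLK2, a kallikrein protease, was higher with EPZ6438 by 1.21 ± 0.13 in C4-2B (adjusted p = 3.82e-07) and by 0.78 ± 0.13 in LNCaP (adjusted p = 0.000819), where median centring gave an adjusted p of 0.349. TRPM8, an ion channel of luminal cells, was higher by 1.63 ± 0.12 in C4-2B with EPZ6438 (adjusted p = 7.65e-10).

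Among 17 epithelial adhesion genes 5 were higher and 3 lower in siEZH2 LNCaP, where 14.2% of all genes were called higher and 12.5% lower. RAB25, a trafficking GTPase of epithelia, was lower by 0.68 ± 0.12 there (adjusted p = 0.000129, and 0.409 by median centring), and PRSS8, a membrane serine protease, was higher by 0.80 ± 0.17 (adjusted p = 0.00082). With EPZ6438 in C4-2B 2 were higher and 3 lower, where 8.14% of all genes were called higher and 7.04% lower. ESRP1, an epithelial splicing regulator, fell by 1.53 ± 0.11 in those cells (adjusted p = 7.74e-10) and MAL2, an apical sorting protein, by 0.72 ± 0.12 (adjusted p = 0.000105). Median centring kept the call on ESRP1 and lost that on MAL2 (-0.67, adjusted p = 0.394). In siEZH2 C4-2B cells 5 were higher and 0 lower, where 10.1% of all genes were called higher and 8.53% lower. In EPZ6438 LNCaP cells 0 were higher and 1 lower, where 4% of all genes were called higher and 2.68% lower.

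Of 16 secretory pathway genes 3 were higher and 1 lower in siEZH2 LNCaP cells, close to the 26.7% of all genes called there in either direction. XBP1, a factor of the unfolded protein response, fell by 0.38 ± 0.11 (adjusted p = 0.00828, and 0.811 by median centring) while PDIA4, a disulfide isomerase, was higher by 0.63 ± 0.10 (adjusted p = 3.32e-05). In siEZH2 C4-2B cells 2 were higher and 0 lower, where 10.1% of all genes were called higher and 8.53% lower. With EPZ6438 1 was higher in LNCaP, where 4% of all genes were called higher. In C4-2B 5 were higher and 2 lower with EPZ6438, where 15.2% of all genes were called in either direction. AGR2, an isomerase of secretory cells, was higher by 1.23 ± 0.16 in EPZ6438 C4-2B cells (adjusted p = 4.3e-06), and DNAJB9, an endoplasmic reticulum co-chaperone, fell by 0.80 ± 0.16 (adjusted p = 0.000682), a call lost by median centring (-0.74, adjusted p = 0.425). Of 7 mesenchymal genes 2 were higher in siEZH2 LNCaP, 1 in siEZH2 C4-2B, 3 with EPZ6438 in LNCaP and 1 with EPZ6438 in C4-2B, and 0 were lower. The shares of all genes called higher in these 4 comparisons were 14.2%, 10.1%, 4% and 8.14%, in the same order. VIM (vimentin) was higher by 0.50 ± 0.10 in siEZH2 LNCaP (adjusted p = 0.000539) and by 0.44 ± 0.10 in siEZH2 C4-2B (adjusted p = 0.00302), where median centring gave an adjusted p of 0.0802. With EPZ6438 VIM was higher by 0.51 ± 0.10 in LNCaP (adjusted p = 0.00276, and 0.984 by median centring). In C4-2B its difference with EPZ6438 was 0.24 and not called (adjusted p = 0.12). Of 3 basal genes 1 was higher in siEZH2 LNCaP, 2 in siEZH2 C4-2B and 1 with EPZ6438 in C4-2B, with 0 lower. These counts stand beside the same shares of all genes. SERPINB5, the maspin gene of basal cells, was higher by 0.89 ± 0.15 in siEZH2 LNCaP (adjusted p = 6.9e-05) and by 0.77 ± 0.15 in siEZH2 C4-2B (adjusted p = 0.000626). With EPZ6438 it was higher by 0.98 ± 0.15 in C4-2B (adjusted p = 4e-05), where 2 of 3 DMSO arrays detected it. In LNCaP its difference with EPZ6438 was 0.45 and not called (adjusted p = 0.0709). Of 4 blood cell genes 1 was called, higher in siEZH2 LNCaP, where 14.2% of all genes were. Of 4 neuroendocrine genes the limma fit called 0 in any treatment comparison, with 2 at an unadjusted p under 0.05, both with EPZ6438 in C4-2B. With arrays centred on their medians, the counts in siEZH2 LNCaP cells were 1 higher and 0 lower for paralogues, 5 and 0 for partner factors, 3 and 0 for adhesion genes, 2 and 0 for secretory genes and 2 and 0 for mesenchymal genes, and with centring on detected probes secretory genes had 1 higher and 2 lower. By median centring in siEZH2 C4-2B they were 1 higher for paralogues, 2 for partner factors, 2 for adhesion genes, 1 for secretory genes and 0 for mesenchymal genes, with 0 lower. With EPZ6438 in C4-2B they were 0 for paralogues, 1 higher for partner factors, 1 lower for adhesion genes, and 1 higher each for secretory and mesenchymal genes. With EPZ6438 in LNCaP 1 partner factor was higher and 0 genes of the other 4 lists were called. Over all genes, median centring called 12.2% in siEZH2 LNCaP, 7.59% in siEZH2 C4-2B, 1.92% with EPZ6438 in C4-2B and 0.203% in LNCaP.

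The genes whose log2 intensity followed each member most closely over the 24 arrays were ranked by Pearson's r, as a description, since arrays share line, experiment and treatment. SPDEF was followed by VIPR1 (r = 0.956), DCAF7 (r = 0.952) and TP53INP2 (r = 0.948). For SPDEF's first, VIPR1, r was 0.96 over the 12 C4-2B arrays and 0.949 over the 12 LNCaP arrays. FOXA1 was followed by UBAP1 (r = 0.934), CREB3L4 by OSTM1 (r = 0.923), EHF by SLC39A14 (r = 0.919) and HOXB13 by PHACTR4 (r = 0.91). GRHL2's closest gene was PRKCA (r = 0.895), and GATA2 had the weakest first match, TAPBP (r = 0.856).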

How the data were processed

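Total RNA of 24 samples was labelled with biotin and hybridised to Illumina HT-12 bead arrays, and GenomeStudio (version not given) is named in the submitters' processing notes. The deposited table held raw probe intensity and a detection p-value for each of 47311 probes, with no normalisation by the authors apparent in the values. A second table deposited by the authors held processed intensity and served as an alternative. Intensities were background-corrected and quantile-normalised with neqc (limma 3.58.1, R 4.3.3, offset 16), giving log2 values. The 26278 probes with a detection p under 0.05 on at least 3 of 24 arrays were kept. Platform annotation gave 1 gene to 30108 probes, several to 8 and none to 17195, and each of 13789 genes was represented by its brightest kept probe. One model over the 8 groups (lmFit, eBayes, 16 residual and 7.43 prior degrees of freedom) gave every comparison, with Benjamini-Hochberg adjustment over all genes and a threshold of 0.05. Errors are standard errors from this model, with 3 arrays per group. Each gene's variance was estimated over all 24 arrays, not only over the groups compared. The number of arrays limits the precision. Fits were tested on simulated data. Beside the members and EZH2, the text names up to 3 called genes per list and comparison with the largest change and non-overlapping arrays, and the genes most correlated with each member. The members and lists were chosen with earlier results of these data known. Alternatives were other scalings, background corrections, filters, probe rules, samples in the fit, a replicate block and leaving out each array.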

Additional observations from a re-analysis of the deposited data

Results flagged for a closer look

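The siEZH2 effect differed between lines, by the test of the difference itself, for SPDEF (0.86) and CREB3L4 (0.50), given as C4-2B minus LNCaP on the log2 scale. The same test called the luminal genes SLC45A3 (1.16), KRT19 (0.97), FKBP5 (0.96) and KLK2 (0.77), whose decrease was smaller in C4-2B, and KLF4 (-0.83), whose increase was smaller there. These 5 genes were named for large changes in a comparison of these same data, so they are no independent sign of a line difference. Over all genes 5.78% were called here, and by median centring 79 genes.

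The difference between the lines depended on the control, siControl minus DMSO, for SPDEF (-1.09), CREB3L4 (-0.85), GRHL2 (-0.72) and FOXA1 (-0.52).

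The EPZ6438 effect, C4-2B minus LNCaP, differed for TRPM8 (0.91), AGR2 (0.81), ELF5 (0.75) and FKBP5 (0.54), which were more positive in C4-2B. It was more negative there for ESRP1 (-1.56), DNAJB9 (-0.99) and MAL2 (-0.74). These genes too were named for large changes in a comparison of the same data. Over all genes 6.67% were called for this difference, and by median centring 35 genes. What underlies these differences was not tested.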

How the results depend on the processing

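SPDEF in siEZH2 LNCaP cells was called under all 17 settings tried, from -1.54 to -1.13, and HOXB13 there under 5 of 17. Scaling mattered most. With median centring, 1 member was called in siEZH2 LNCaP, 0 in siEZH2 C4-2B, 0 with EPZ6438 in each line, 1 and 0 for the siEZH2 minus EPZ6438 effect in LNCaP and C4-2B, and 0 for the siEZH2 effect between lines. All-gene calls fell to 1689 (86.2% of them higher, against 53.3% in the quantile-normalised fit with 3685 calls) in siEZH2 LNCaP, to 1047 (93.1% higher, against 54.3% of 2572) in siEZH2 C4-2B, to 28 (92.9% against 59.9% of 921) with EPZ6438 in LNCaP and to 265 (68.3% against 53.6% of 2093) in C4-2B. They were 267 (71.2% higher, against 47.6% of 2550) and 182 (67% against 47.7% of 1913) for the effect differences in LNCaP and C4-2B, 79 (27.8% against 54.6% of 797) and 35 (of 920) for the siEZH2 and EPZ6438 effects between lines, and 3664 (35.3% against 49.8% of 6821) in control cells. Centring on detected probes gave 1 member with EPZ6438 in LNCaP, 1 for the C4-2B effect difference and 0 for the siEZH2 effect between lines, and 355, 1295 and 466 genes there, 1257 with EPZ6438 in C4-2B and 459 for the EPZ6438 effect between lines. It gave 40.3% higher in siEZH2 C4-2B. The deposited processed table gave 1 member in each of those 3 comparisons, and no background correction or no filter gave 1 for the C4-2B effect difference. Fitting only the groups compared gave 0 members and 53 genes with EPZ6438 in LNCaP, 1364 genes in C4-2B and 481 for the EPZ6438 effect between lines. DMSO arrays alone gave 1 member in control cells.

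Uncalled values changed sign under median centring for FOXA1 (0.11), GRHL2 (0.29) and HOXB13 (0.05) in siEZH2 C4-2B, FOXA1 with EPZ6438 in LNCaP (-0.01), and HOXB13 in the C4-2B effect difference (0.17) and in control cells (-0.04, and -0.07 on siControl arrays). FOXA1 in the C4-2B effect difference was -0.11 on centring by detected probes. On DMSO arrays alone FOXA1 was 0.17, GRHL2 0.15 and SPDEF, called over all control arrays, 0.11. The cause was not tested.

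Leaving out 1 array gave 5 to 5 members in siEZH2 LNCaP, 0 to 3 in siEZH2 C4-2B, 0 to 3 with EPZ6438 in LNCaP, 1 to 2 in C4-2B, 3 to 5 and 1 to 3 for the effect differences in LNCaP and C4-2B, 0 to 2 and 0 to 1 for the siEZH2 and EPZ6438 effects between lines, and 3 to 4 in control cells. Uncalled values spanned 0 for GRHL2 in siEZH2 C4-2B (-0.17 to 0.04), for FOXA1 (-0.02 to 0.16) and HOXB13 (-0.15 to 0.12) with EPZ6438 in LNCaP, for FOXA1 (-0.01 to 0.12), GATA2 (-0.04 to 0.18) and HOXB13 (-0.26 to 0.07) in the C4-2B effect difference, and between lines for HOXB13 with siEZH2 (-0.03 to 0.30) and GRHL2 with EPZ6438 (-0.22 to 0.11).

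Replicate numbers did not pair the arrays: same-numbered arrays correlated at 0.01, 0.08 and 0.09 in siEZH2 LNCaP and at -0.11, -0.28 and 0.10 in siEZH2 C4-2B, and at 0.32, -0.12 and 0.10 with EPZ6438 in LNCaP and 0.09, 0.04 and 0.31 in C4-2B. With the replicate block the member counts were 6, 2, 2 and 2 in siEZH2 LNCaP, siEZH2 C4-2B, EPZ6438 LNCaP and EPZ6438 C4-2B, as without it, while in the LNCaP effect difference FOXA1 (-0.43, adjusted p = 0.0587) left the calls and EHF (-0.68, adjusted p = 0.0314) joined them.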
